A study of Saccharomyces cerevisiae with 9 samples.

Results

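Transcripts of the cytosolic ribosomal proteins of Saccharomyces cerevisiae were followed in cells exposed to 2 kinds of quantum dot. The genes were taken by name from the deposited tables, as the RPL and RPS genes with a number plus RPP0, RPP1A, RPP1B, RPP2A and RPP2B. This gave 137 genes among 7012 entries of the CdSe/ZnS table and 7042 entries of the InP/ZnS table. Of them 81 belong to the large subunit, the stalk included, and 56 to the small subunit. They form 59 pairs of an A and a B copy and 19 single-copy genes, and they encode 78 proteins.

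The strain is given as S288C, a common laboratory yeast. Cultures in synthetic medium with glucose were shaken at 220 rpm and 30 °C and used at an optical density between 0.3 and 0.6. Quantum dots are semiconductor nanocrystals, and both kinds used here carry a zinc sulfide shell. Per the design text, 3 libraries came from untreated cells, 3 from cells given CdSe/ZnS dots (cadmium selenide core, 10 µg/mL) and 3 from cells given InP/ZnS dots (indium phosphide core, 100 µg/mL), each after 6 h. The doses differ, and the unit of the InP/ZnS dose is uncertain, since the labels have mg/mL where the design text has µg/mL. No group carries a mutation or other agent according to the labels, and all share the strain and medium. Whether the 3 libraries of a group came from separate cultures is not given, so every error and p-value below measures the spread between these libraries only, which may be technical.

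A ribosome holds a large subunit, which joins amino acids, and a small subunit, which reads the messenger RNA. Yeast duplicated its genome long ago and kept A and B copies of most ribosomal protein genes, often with near-identical proteins. Their promoters are bound by Rap1, Fhl1 and Ifh1 and are regulated by the TOR and protein kinase A pathways, so that these genes are known for moving together when growth conditions change. Many carry an intron, which is otherwise uncommon in this yeast.

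The tables hold 1 level per gene and condition, in FPKM (fragments scaled by transcript length and by library size), with the authors' Cuffdiff fold change, test score, p and q. No library has a value of its own, so depth is unknown and no value per library can be given. Errors quoted with log2 fold changes are implied standard errors, the fold change over the authors' score, and had a median of 0.234 over the members in each table. A gene is called higher or lower where the authors' q is under 0.05. The highest mating-type genes in untreated cells were those of an a cell. MFA1 and MFA2 stood at 18407 and 22154 FPKM in the authors' deposited table for CdSe/ZnS. The other a-cell genes there were AGA2 (363 FPKM), STE2 (102), BAR1 (26.0) and STE6 (17.5). The 3 alpha-cell genes tested summed to 78.0 FPKM, and MF(ALPHA)1 was not tested. Of these, MF(ALPHA)2 (45.9 FPKM) and SAG1 (28.3) lay above BAR1 and STE6, and STE3 (3.76) below. S288C is commonly kept as an alpha strain. In that table the summed FPKM of all entries with CdSe/ZnS was 0.695 times that of untreated cells, against 1.02 times with InP/ZnS.

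Ribosomal protein transcripts were lower after both exposures. Of the 135 members tested, 117 were lower with CdSe/ZnS, none was higher and 18 were not called. By Cuffdiff in the authors' deposited table, 43.6% of 6321 tested entries were lower and 9.59% higher. With InP/ZnS 128 members were lower, none was higher and 7 were not called, where 17.2% of 6367 tested entries are lower and 23.9% higher in the authors' deposited table. The share of members called lower, 86.7% and 94.8%, was above the share of all entries in both tables, by a wider margin with InP/ZnS. At the deposited p under 0.05 without adjustment, 0 members were higher in either table. A normal test of the deposited fold change over its error, with Benjamini-Hochberg adjustment over the whole table, called 104 members lower and 0 higher with CdSe/ZnS, where 29.6% of entries were lower and 4.43% higher. The count with InP/ZnS was 90 lower and 0 higher, where 6.55% of entries were lower and 9.3% higher.

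The median log2 fold change of the members was -0.84 with CdSe/ZnS (SD 0.40 between genes, range -1.86 to 0.22), a fold of 0.558. It was -0.72 with InP/ZnS (SD 0.19 between genes, range -1.38 to -0.22), a fold of 0.607. Over all tested entries the medians were -0.35 (CdSe/ZnS) and 0.07 (InP/ZnS). Relative to these, the members stood at -0.49 and -0.79. The fold changes spread more than 2 times as widely between members with CdSe/ZnS as with InP/ZnS, and 45 members fell by at least 1 on the log2 scale with CdSe/ZnS against 6 with InP/ZnS.

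The same test on fold changes relative to the median of all entries called 51 members lower and 1 higher with CdSe/ZnS, where 13.6% of all entries were lower and 11.9% higher. It called 100 members lower and none higher with InP/ZnS, where 8.32% of all entries were lower and 7.87% higher. The 1 member higher with CdSe/ZnS was RPL4A (0.57 above the median of all entries).

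**Figure D1:**
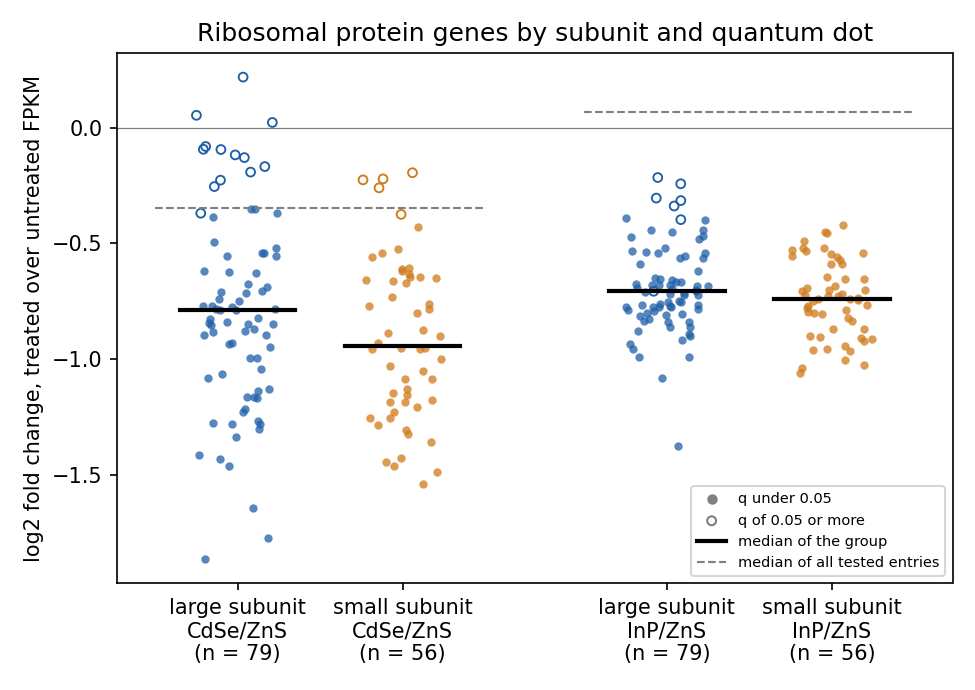
Log2 fold change of treated over untreated FPKM for each ribosomal protein gene tested, by subunit and quantum dot, with the median of each group (black) and of all tested entries (dashed). With CdSe/ZnS the 79 large and 56 small subunit genes spread from -1.86 to 0.22 around an all-entry median of -0.35, and with InP/ZnS they lie between -1.38 and -0.22, all below an all-entry median of 0.07.

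As a share of the summed FPKM of all entries, the members went from 14.2% in untreated cells to 10.5% with CdSe/ZnS, 0.737 times the untreated share. In the InP/ZnS table the share went from 14.4% to 8.64%, 0.602 times. The members' summed level fell from 214524 to 109956 FPKM with CdSe/ZnS and from 252647 to 155026 FPKM with InP/ZnS. The share thus fell further with InP/ZnS and the summed level further with CdSe/ZnS, where the sum over all entries fell too. These are single values per condition without a replicate check.

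The most abundant members were short genes. RPS29B (chromosome IV, 340628 to 340798), a zinc-binding protein of the small subunit's head, stood at 15582 FPKM in untreated cells and, in the authors' deposited table, at 5361 with CdSe/ZnS. The authors' deposited table for InP/ZnS has it going from 18420 to 9485 FPKM. RPL39, which lines the exit tunnel for the growing chain, went from 15250 to 6512 FPKM with CdSe/ZnS and from 16804 to 11376 with InP/ZnS in the authors' deposited tables, but shares its locus with BUD19, so that its values are uncertain. RPS30A, a protein at the path of the messenger RNA, went from 10396 to 4059 FPKM and from 11955 to 8269 FPKM in the same order in the authors' deposited tables. These were also the 3 highest members in treated cells of both tables, as the plot of treated against untreated levels shows. In these data fewer transcripts of one kind and a change in the transcripts of all other genes cannot be told apart, since FPKM is relative to the library.

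**Figure D2:**
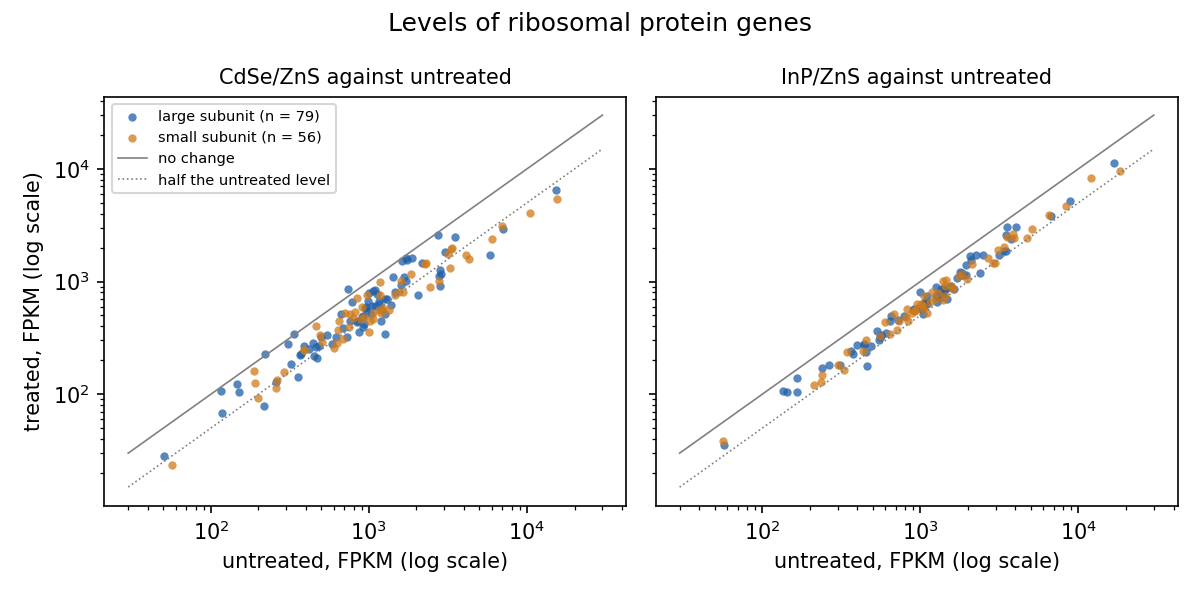
Treated against untreated FPKM of each ribosomal protein gene tested, both axes on a log scale, 1 panel per quantum dot, coloured by subunit (79 large, 56 small). With InP/ZnS the genes run in a narrow band below the line of no change, 6 of them below the line at 2-fold less; with CdSe/ZnS the band is wider, and 45 genes lie below that lower line.

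RPL41A and RPL41B, which encode the shortest protein of the large subunit, are listed at 0 in all conditions of the authors' deposited tables and were not tested. Their coding sequence has 78 bp, and reads under 80 bp were dropped before alignment, per the deposited text sheets. The 0 is therefore given as listed, with no statement on expression.

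Genes of both subunits were lower. After CdSe/ZnS the large subunit had a median log2 fold change of -0.79 (66 of 79 lower) and the small subunit -0.94 (51 of 56 lower). The medians with InP/ZnS were -0.71 (72 of 79 lower) and -0.74 (56 of 56 lower). The gap between the subunit medians was 0.15 and 0.03; genes are not replicates, so no test of it was made. With A and B copies summed, the CdSe/ZnS medians were -0.79 (large) and -0.83 (small), a gap of 0.05. The InP/ZnS medians were then -0.69 and -0.71.

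Among large subunit genes, RPL34A had the lowest value with CdSe/ZnS, at 1256 FPKM in untreated and 345 in treated cells in the authors' deposited table. Its log2 fold change was -1.86 (implied standard error 0.23) there. It was followed by RPL37B, a zinc-binding protein gene that went from 5823 to 1705 FPKM (-1.77), and RPL31A, a protein at the tunnel's exit, from 2825 FPKM to 904 (-1.64) in the authors' deposited table. RPL15B went from 216 to 78.5 FPKM (-1.46) and RPL37A from 2052 to 761 FPKM (-1.43) in that deposited table of the authors. At the upper end RPL4A, which reaches into the tunnel wall, stood at 735 FPKM in untreated and 855 in treated cells and RPL4B at 335 and 340 in the authors' deposited table. RPL1B, of the mobile L1 stalk, stood at 221 and 229 FPKM, RPL15A at 1620 and 1531, and RPL10, a late-joining protein, at 2735 and 2564 in the authors' deposited table. None of these 5 was called, and RPL10 shares its locus with YLR076C.

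Among small subunit genes, RPS29B fell most with CdSe/ZnS, by 1.54 on the log2 scale (implied standard error 0.21) in the authors' deposited table. RPS28B went from 1002 to 357 FPKM, RPS21B from 2779 to 1011 and RPS10A, a protein near the entry of the messenger RNA, from 2429 to 892 in the authors' deposited table. RPS27A, which shares its locus with another entry, went from 4267 to 1590 FPKM there. The small subunit genes that were not called included RPS2 (977 and 753 FPKM), RPS13 (1181 and 986), RPS22A (843 and 721) and RPS6B (188 and 161) in the authors' deposited table. RPS2 had a q of 0.0600 there, close to the threshold.

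With InP/ZnS the lowest member was RPL8A, a protein of the large subunit's early assembly. The authors' deposited table has it at 458 FPKM in untreated and 177 in treated cells, and its log2 fold change was -1.38 (implied standard error 0.22). RPL34A (1469 to 694 FPKM), RPL37A (2381 to 1199), RPL33B (1033 to 520) and RPL11B (456 to 235) came next in the large subunit in the authors' deposited table. In the small subunit RPS0A fell from 1394 to 679 FPKM and RPS0B from 1099 to 527, both copies of a protein needed for the small subunit's maturation, in the authors' deposited table. RPS10A (2956 to 1452 FPKM), RPS14B (329 to 164) and RPS15 (2869 to 1470) followed in the authors' deposited table.

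The 7 members not called with InP/ZnS were all of the large subunit. RPL10 had a log2 fold change of -0.22 (q = 0.389), RPL1A of -0.24 (q = 0.146) and RPL30 of -0.30 (q = 0.0674) in the authors' deposited table; RPL30 is known to repress the splicing of its own transcript. RPL4A had -0.31 and RPL22B -0.34 in the authors' deposited table. RPL28 (-0.40) and RPL36B (-0.71, implied standard error 0.93) both share a locus with another entry in the authors' deposited table. The small subunit genes closest to 0 with InP/ZnS included RPS25B (684 to 511 FPKM), RPS23B (1395 to 1021) and RPS17B (594 to 434), all called lower in the authors' deposited table.

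By place in the ribosome, the groups below were chosen after values had been seen and are given as counts only, to be read beside the 86.7% and 94.8% of all members, and the 43.6% and 17.2% of all entries, that were lower with CdSe/ZnS and InP/ZnS. Proteins that line the exit tunnel or sit at its exit were taken as RPL4, RPL17, RPL19, RPL25, RPL26, RPL31, RPL35 and RPL39. They had 12 of 14 genes lower with CdSe/ZnS and 13 of 14 with InP/ZnS, at medians of -0.89 and -0.67. The stalk, which recruits the translation factors (RPP0, RPP1, RPP2 and RPL12), had 5 of 7 and 7 of 7 genes lower, at -0.56 and -0.59. RPP2B, its most abundant gene, went from 3530 to 2508 FPKM with CdSe/ZnS and from 4042 to 3069 with InP/ZnS in the authors' deposited tables. The particle of 5S RNA, formed by RPL5 and RPL11, had all 3 genes lower in both tables, at -0.71 and -0.90. Proteins along the path of the messenger RNA (RPS2, RPS3, RPS23 and RPS30) had 5 of 6 and 6 of 6 genes lower, at -0.98 and -0.62. The ubiquitin fusions RPL40A, RPL40B and RPS31, which supply the cell with ubiquitin as well as a ribosomal protein, were all lower in both tables.

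With CdSe/ZnS the shortest ribosomal protein genes had the lowest values. Across the 135 members, the Spearman correlation between coding length and log2 fold change was 0.48 with CdSe/ZnS, against 0.03 with InP/ZnS; it is across genes of the same libraries, and genes are not independent replicates. Among other protein-coding genes of the same range of length it was 0.15 and 0.03. Length also went with level: the correlation between coding length and untreated FPKM was -0.54 in each table. The median log2 fold change of members with CdSe/ZnS was -1.26 for up to 300 bp (n = 17), -0.93 for over 300 to 450 bp (n = 57), -0.79 for over 450 to 600 bp (n = 32), -0.56 for over 600 to 900 bp (n = 25) and -0.07 for longer genes (n = 4). Other protein-coding genes in the same classes had medians of -0.74, -0.64, -0.65, -0.53 and -0.23.

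The members' medians with InP/ZnS in the same order were -0.73, -0.74, -0.70, -0.74 and -0.50, and those of other protein-coding genes were -0.03, 0.07, 0.02, 0.02 and 0.11. Ribosomal genes thus lay below other genes of the same length class by 0.61 to 0.81 in each of the 5 classes with InP/ZnS. For CdSe/ZnS the gap was 0.52 in the shortest class and 0.29, 0.13 and 0.03 in the next 3. The 4 longest members lay 0.15 above other genes over 900 bp. This last class has no upper limit, so its genes are not of like length. With CdSe/ZnS it sets 4 members (median 1089 bp) against 3722 other genes. With the trend with coding length taken out, these 4 members had a median of 0.32 with CdSe/ZnS. Other protein-coding genes at or above the lower quartile of the members' level had a median of -0.70 with CdSe/ZnS (n = 325) and -0.09 with InP/ZnS (n = 310).

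**Figure D3:**
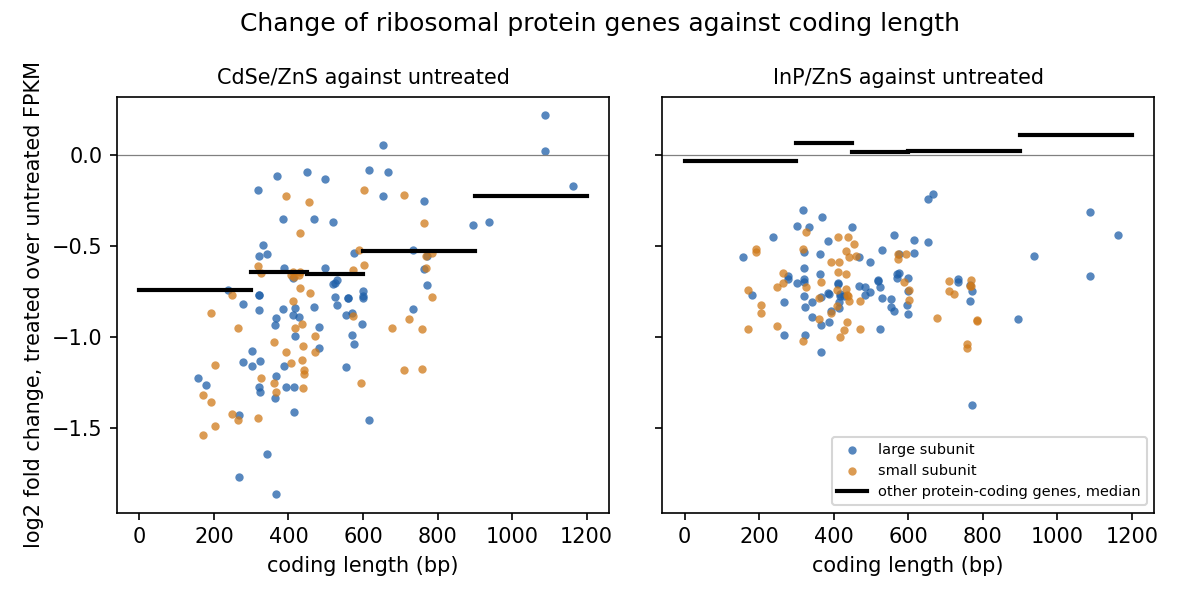
Log2 fold change of treated over untreated FPKM against coding length for each ribosomal protein gene tested, with the median of other protein-coding genes in 5 length classes as black bars (the last bar stands for all genes over 900 bp). With CdSe/ZnS the ribosomal medians run from -1.26 in the shortest class to -0.07 in the longest, and with InP/ZnS they stay between -0.74 and -0.50.

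With the trend with coding length taken out (medians of 20 length bins over all genes), the members' median was -0.15 with CdSe/ZnS, against -0.69 with InP/ZnS. The normal test then called 13 members lower and 2 higher with CdSe/ZnS, where 12.1% of 5698 genes were lower and 10.5% higher. The share of members, 13 of 135, was near that background. The 13 were RPL15B, RPL23A, RPL23B, RPL31A, RPL34A, RPL37A, RPL37B, RPS0A, RPS10A, RPS21B, RPS23A, RPS29B and RPS6A; the 2 higher were RPL1B and RPL4A. For InP/ZnS the test called 83 members lower and none higher, where 9.1% of 5739 genes were lower and 8.57% higher.

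Genes with and without an intron were lower in both tables. With CdSe/ZnS, 83 of 89 genes with an intron were lower at a median of -0.89, against 34 of 46 without at -0.65. The genes with an intron were also shorter, with a median coding length of 417 against 511.5 bp, and the part of length in that gap was not tested. The InP/ZnS medians were -0.74 and -0.71. Single-copy genes had medians of -0.66 (12 of 19 lower) with CdSe/ZnS and -0.65 (16 of 19 lower) with InP/ZnS.

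Short stretches of the coding strand show how far A and B copies can be told apart by reads. RPL15A and RPL15B, whose fold changes differed most with CdSe/ZnS, and RPL31A and RPL31B, which come next in size over error on the other side, are printed from RefSeq assembly R64 with the bases that differ between the copies in capitals. For RPL15 they are coding bases 397 to 516 (chrXII:202075-202194 and chrXIII:509833-509952, both on the minus strand), with 14 of the 42 mismatches of the 615 bp. For RPL31 they are coding bases 58 to 177 (chrIV:322704-322823, plus strand, and chrXII:931230-931349, minus strand), with 13 of the 30 mismatches of the 342 bp. Both stretches are denser in mismatches than the whole coding sequence. Of all stretches of 80 coding bases, 6.90% are shared by the RPL15 copies and 0% by the RPL31 copies.
RPL15A: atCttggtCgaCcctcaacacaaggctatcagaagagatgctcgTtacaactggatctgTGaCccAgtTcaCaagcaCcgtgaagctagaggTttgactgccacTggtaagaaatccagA
RPL15B: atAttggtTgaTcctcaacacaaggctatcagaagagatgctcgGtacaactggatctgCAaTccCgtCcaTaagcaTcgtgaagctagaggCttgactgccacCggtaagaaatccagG
RPL31A: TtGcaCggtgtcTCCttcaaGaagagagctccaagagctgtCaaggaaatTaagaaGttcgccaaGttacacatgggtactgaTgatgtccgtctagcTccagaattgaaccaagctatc
RPL31B: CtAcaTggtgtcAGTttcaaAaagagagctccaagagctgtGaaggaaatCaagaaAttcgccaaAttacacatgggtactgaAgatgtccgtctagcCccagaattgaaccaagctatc

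The pairs differed widely in how alike their copies are. Over the 59 pairs, the identity of A and B coding sequences ran from 69.2% (RPP1) to 99.4% (RPL1), with a median of 93.2%, and 21 pairs encode the same protein. In 33 of the 58 pairs long enough, no stretch of 80 coding bases, the shortest read kept, was the same in both copies. In RPL35, the pair with the most, 78.5% of such stretches were shared. How the authors' tools split shared reads is not given, so values of single copies are uncertain in the pairs that share most of these stretches, such as RPL1 (69.6%), RPL4 (60.0%) and RPL35. The sum of both copies had a log2 fold change of -0.05 (CdSe/ZnS) and -0.38 (InP/ZnS) for RPL1, of 0.16 and -0.41 for RPL4, and of -1.07 and -0.62 for RPL35.

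In most pairs both copies were lower. With CdSe/ZnS both copies were lower in 49 of 58 pairs, 1 copy in 7 (among them RPL2, RPL12, RPL15, RPL22, RPS6 and RPS22) and neither in RPL1 and RPL4. With InP/ZnS both were lower in 54 pairs and 1 copy in RPL1, RPL4, RPL22 and RPL36. Taken singly, 89.7% of A and 91.4% of B copies were lower with CdSe/ZnS, and 96.6% of each with InP/ZnS. At such shares most pairs have both copies lower even without a link between copies, so these counts cannot show one. The median difference A minus B in log2 fold change was -0.01 with CdSe/ZnS (SD 0.48 over pairs) and 0.02 with InP/ZnS (SD 0.22). The difference was over 2 errors in 7 pairs with CdSe/ZnS and in 0 with InP/ZnS. This cut is descriptive and was not adjusted for the 58 pairs compared, so some pairs may pass it without a real difference. With CdSe/ZnS the A copy had the higher fold change in 29 pairs and the B copy in 29.

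RPL15, a protein of the large subunit's core, had the widest gap with CdSe/ZnS. RPL15A stood at 1620 FPKM in untreated and 1531 in treated cells and RPL15B at 216 and 78.5 in the authors' deposited table. The difference A minus B was 1.38 (error 0.33), and the A copy's share of the pair went from 88.2% to 95.1%. After InP/ZnS the A copy went from 1933 to 1396 FPKM and the B copy from 266 to 183 in the authors' deposited table, a difference of 0.07 (error 0.35).

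RPL31 and RPS6 had gaps of the opposite sign. RPL31A fell from 2825 to 904 FPKM and RPL31B from 1128 to 775 under CdSe/ZnS in the authors' deposited table, A minus B -1.10 (error 0.33), and the A share went from 71.5% to 53.9%. The RPL31 difference with InP/ZnS was -0.08 (error 0.33). RPS6, whose protein is phosphorylated downstream of TOR, had RPS6A at 258 and 114 FPKM and RPS6B at 188 and 161 in the authors' deposited table, A minus B -0.96 (error 0.29) with CdSe/ZnS. These copies differ at 6 coding bases and share 61.2% of their stretches of 80, so that their split is uncertain; the sum of both had a log2 fold change of -0.70 with CdSe/ZnS and -0.73 with InP/ZnS.

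The other pairs over 2 errors with CdSe/ZnS were RPL34 (-0.97, error 0.32), RPS22 (0.86, error 0.32), RPS10 (-0.83, error 0.36) and RPL22 (-1.10, error 0.54). RPL22A, the more abundant copy of its pair, shares its locus with BUD28. The widest gap relative to its error with InP/ZnS was that of RPL8, at -0.63 (error 0.36), where the A copy's share went from 26.8% to 19.2%. RPS10 had -0.51 (error 0.33), RPL18 -0.42 (error 0.34) and RPS14 0.41 (error 0.34) with InP/ZnS, each within 2 errors. The size of the gap did not go with sequence identity: its Spearman correlation with the share of common stretches was -0.07 with CdSe/ZnS, and -0.03 for InP/ZnS, over 58 pairs.

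**Figure D4:**
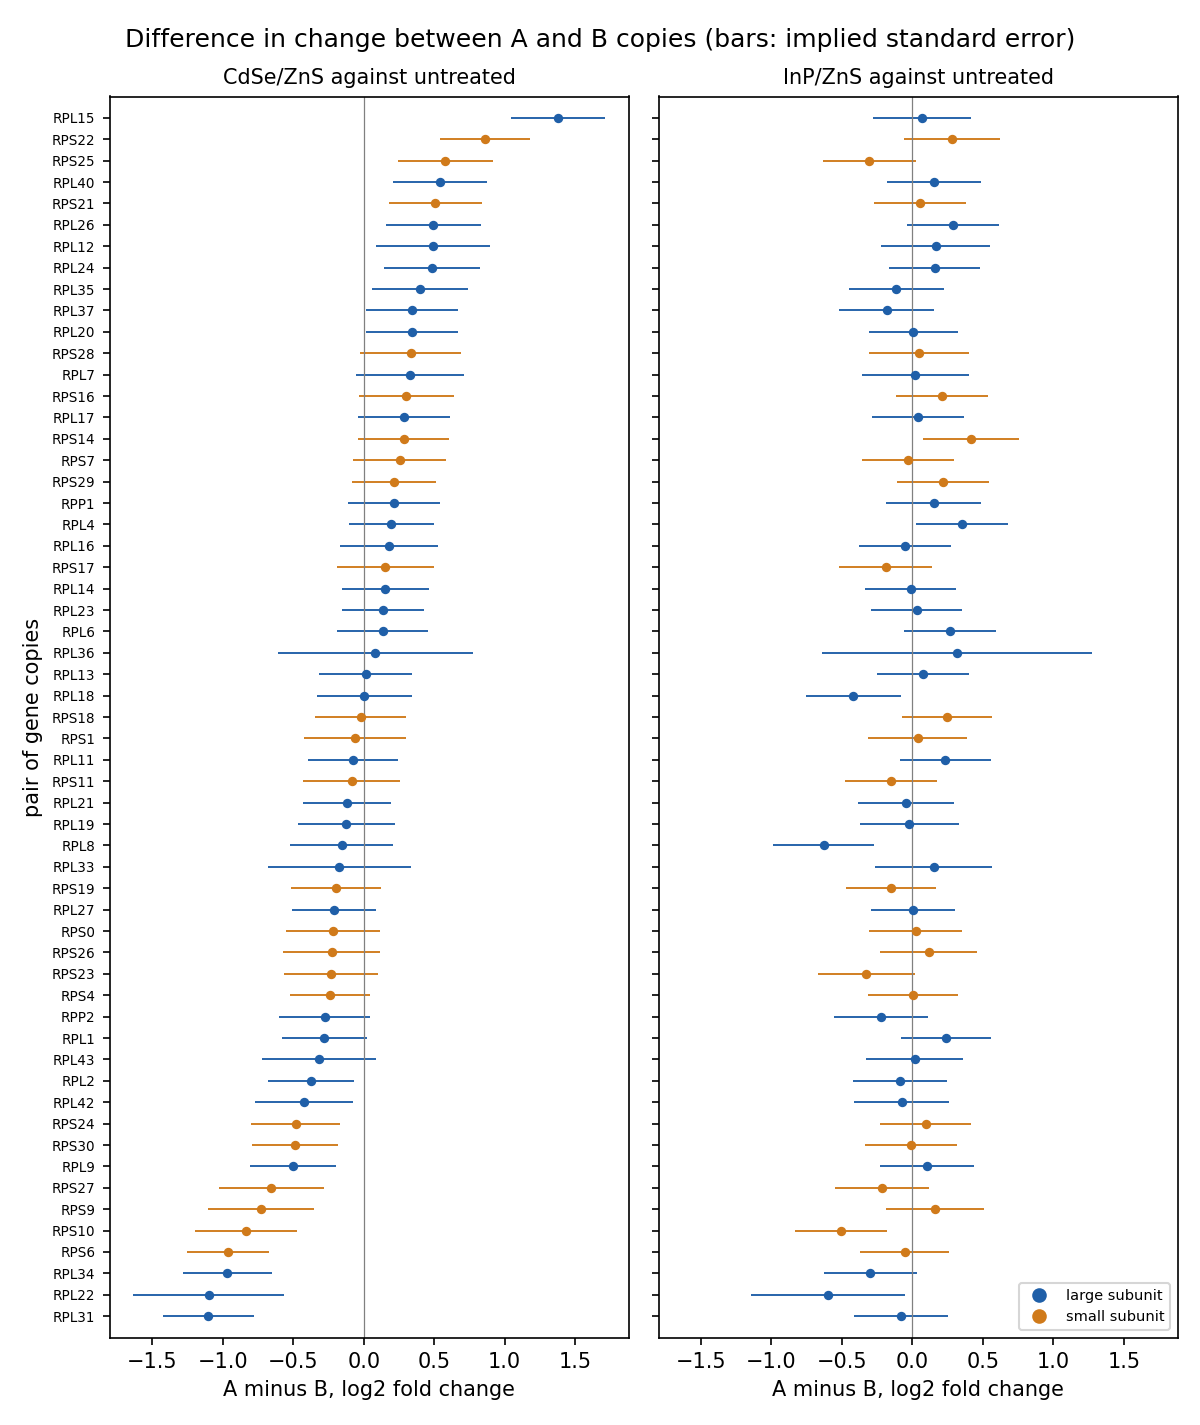
Difference A minus B in log2 fold change for 57 pairs of copies, ordered by the CdSe/ZnS value, with the implied standard error as bars. With CdSe/ZnS the pairs run from -1.10 (RPL31) to 1.38 (RPL15); in the same order the InP/ZnS values lie between -0.63 and 0.41.

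Summed over copies, 76 of 77 proteins had a lower level with CdSe/ZnS and 77 of 77 with InP/ZnS, at medians of -0.79 and -0.70 on the log2 scale. The exception was RPL4 with CdSe/ZnS (0.16). The lowest were RPL37 with CdSe/ZnS (-1.68) and RPS0 with InP/ZnS (-1.05). The levels of the proteins' transcripts drew together with CdSe/ZnS, as the SD of the log2 level went from 1.15 to 1.0. For InP/ZnS it went from 1.15 to 1.14.

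The change with CdSe/ZnS was then set against that with InP/ZnS, which share the untreated cells and differ in dose. As deposited, 2 of 135 members passed the test of the difference, both lower with CdSe/ZnS, where 12% of 6290 entries were lower with CdSe/ZnS and 0.318% higher. RPL15B differed by -0.92 (error 0.32) and RPL37B by -0.97 (error 0.34). No member was higher past the adjusted threshold of 0.05, and 2 were at an unadjusted p under 0.05. Taken relative to the median of each table the sign turned: 103 of 135 members were higher with CdSe/ZnS, 2 of them past the test (RPL4B and RPL8A, where 0.986% of entries were higher), and none was lower past it, where 2.07% of entries were. With the length trend out, 125 of 135 were higher with CdSe/ZnS and 7 passed, among them RPL1B, RPL4A, RPL4B, RPL8A, RPS6B and RPS22A, where 1.06% of 5683 genes were higher past the test and 1.83% lower. Which dot lowered ribosomal transcripts further thus depended on whether values were read as deposited or against other genes.

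The promoters hold a known mark of this gene family, printed here for genes with the largest falls. In the 500 bases before the start codon, the Rap1 site, searched on both strands as ACACCC, 2 bases of any kind and ACA, was in 19 of 137 members (13.9%) and in 0.933% of 6000 genes. Its core ACCCNNACA, which the longer site contains, was in 54 members (39.4%) and in 5.47% of genes. The stretch before RPL34A, lowest with CdSe/ZnS, holds the core on the opposite strand 312 bases before the start codon (chrV:270464-270522, gene on the minus strand). The stretch before RPL8A, lowest with InP/ZnS, holds the longer site 241 bases before it (chrVIII:36231-36291, gene on the minus strand). Both are given on the strand of the gene from RefSeq assembly R64, with the site in capitals.
RPL34A: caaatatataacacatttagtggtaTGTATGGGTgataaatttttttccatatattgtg
RPL8A: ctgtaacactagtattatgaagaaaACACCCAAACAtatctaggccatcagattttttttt

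No match to either form was found before RPL4A, highest with CdSe/ZnS, and RPL10, highest with InP/ZnS. Members with the core had medians of -0.82 with CdSe/ZnS and -0.71 under InP/ZnS, and those without it -0.86 and -0.73; this difference was not tested. The Abf1 site (TCA, 6 bases of any kind and ACG) was in 17.5% of members and 22.7% of genes, the Fhl1 site GACGCA in 15.3% and 10.9%, and the run TTTTTT in 93.4% and 84.4%.

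Among 25 listed regulators of ribosomal protein genes, 3 were higher and 10 lower with CdSe/ZnS, and 7 higher and 5 lower with InP/ZnS. These counts are near the shares of all entries, 9.59% higher and 43.6% lower with CdSe/ZnS and 23.9% higher and 17.2% lower with InP/ZnS. IFH1, the co-activator at these promoters, went from 26.8 FPKM to 44.4 under CdSe/ZnS in the authors' deposited table, while FHL1, which recruits it, went from 18.8 to 10.4. DOT6, the gene of a repressor on the list, fell from 346 to 208 FPKM there. Whether each listed regulator, DOT6 included, acts on ribosomal protein genes was not checked. With InP/ZnS, TPK2, a catalytic subunit of protein kinase A, went from 61.6 to 113 FPKM, LST8, a TOR subunit, from 334 to 574, and YAK1, a kinase that opposes growth, from 138 to 228 in the authors' deposited table. IFH1 and YAK1 each share a locus with another entry, so that their values are uncertain.

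Of 13 chaperones and importers that bring single ribosomal proteins to assembly, 10 were lower and 1 higher with CdSe/ZnS (43.6% and 9.59% of all entries), and 3 lower with InP/ZnS (17.2% of all entries, near the list's share). FAP7, which acts on RPS14, went from 96.4 to 40.4 FPKM and SQT1, the chaperone of RPL10, from 68.8 to 35.3 under CdSe/ZnS in the authors' deposited table. YAR1, the chaperone of RPS3, went from 305 to 166 FPKM there. SQT1 also fell with InP/ZnS, from 82.2 FPKM to 48.9 in the authors' deposited table, with RRB1 (110 to 80.2) and KAP104 (42.7 to 32.7).

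Of 16 genes listed for enzymes that modify proteins, ribosomal ones among them, 11 were lower and none higher with CdSe/ZnS. With InP/ZnS 4 were lower and 2 higher. Of all entries, 43.6% were lower with CdSe/ZnS, and 17.2% lower and 23.9% higher with InP/ZnS. The N-terminal acetylase genes NAT3 (76.9 to 33.3 FPKM) and ARD1 (58.1 to 27.2) and the methyltransferase gene HPM1 (21.0 to 9.60) fell most under CdSe/ZnS in the authors' deposited table. NAT4, another acetylase on the list, rose from 10.4 to 19.9 FPKM with InP/ZnS in the authors' deposited table. The methyltransferase gene HMT1 fell from 87.1 to 56.3 FPKM and the hydroxylase gene TPA1 from 92.7 to 60.5 there. Whether each listed enzyme, NAT4 included, acts on ribosomal proteins was not checked. Of 20 factors that bind ribosomes, 12 were lower with CdSe/ZnS (43.6% of all entries) and 13 with InP/ZnS (17.2% of all entries), none higher; their median relative to all entries was -0.10 and -0.52. LSO2 (448 to 141 FPKM), TMA7 (1437 to 588) and YGR054W (91.3 to 41.5) fell most with CdSe/ZnS, and YGR054W (103 to 49.1), STM1 (885 to 484) and the chaperone SSB2 (343 to 210) with InP/ZnS in the authors' deposited tables. Relative to all entries, the 4 lists had medians between -0.28 and 0.09 with CdSe/ZnS and between -0.52 and -0.05 with InP/ZnS. These lay nearer to 0 than the -0.49 and -0.79 of the ribosomal protein genes, but coding length was not matched. Taking out the length trend moved the ribosomal protein median to -0.15 after CdSe/ZnS, and after InP/ZnS to -0.69. The lists were not adjusted for length, so whether ribosomal protein genes fell further at like length was not tested.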

How the data were processed

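RNA from 9 libraries, 3 for each of 3 conditions, was analysed from gene-level tables, 1 per quantum dot. Per the labels' protocols, poly(A) RNA was taken and amplified in 15 cycles. Per the deposited text sheets, reads were cleaned of bases under quality 20 and of their first 12 bases, and those left shorter than 80 bp were discarded. The submitters' processing notes list TopHat and Cuffdiff. Their versions, the genome build and any strand setting were not given in the sources used here. The FPKM, log2 fold change, test score, p-value and q-value are those deposited by the authors, 1 per gene and condition or comparison, pooled over libraries. Which column was the treated one was read from the deposited lists of called genes, which match the calls. No value per library was in the tables, so depth is unknown and no test over libraries was made.

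A standard error was computed as log2 fold change over score. A normal test (2-sided, Benjamini-Hochberg over all tested entries) was run on values as deposited, relative to the median of all entries, and without the trend with coding length. The difference between dots was divided by both errors combined as root sum of squares; the control is shared, so that this overstates the error. These tests were tried on simulated data with changes larger than that of any member and without a shared control. Their power at the changes seen here was therefore not measured. All 137 members matched RefSeq (assembly R64), and 124 had the same coordinates; the other 13, among 19 that share a locus with another entry, have the locus of both. Of all entries alone at their locus 99.5% (CdSe/ZnS) and 99.6% (InP/ZnS) had the same coordinates. Coding sequences of A and B copies were aligned globally (match 1, mismatch -1, gap opening -3, extension -1). Python 3.11.15, pandas 2.3.3, numpy 2.4.6, scipy 1.17.1, Biopython 1.88 and matplotlib 3.10.9 were used.

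Members and lists were chosen with earlier results of these data known. Genes were named by rule: per table and subunit the 5 lowest and 5 highest fold changes, the 5 most abundant members per subunit, members called higher or not tested, the 6 pairs per table with the largest difference over its error, members past the test between dots, and up to 3 called genes per related list and table. Other members, those behind small counts and the groups by place in the ribosome, were named after their values were seen. The values of 1 pair are not reported here, though its genes are in the counts.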

Additional observations from a re-analysis of the deposited data

Results flagged for a closer look

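For 2 ribosomal protein genes the change differed between the quantum dots past the normal test of the difference itself, adjusted over all entries, with the doses differing too. RPL15B had a log2 fold change of -1.46 with CdSe/ZnS and -0.54 with InP/ZnS, a difference of -0.92 (error 0.32). RPL37B had -1.77 and -0.81, a difference of -0.97 (error 0.34). Neither passed once each table was taken relative to its median. The untreated level of RPL36B was 1.95 times as high in the InP/ZnS table as in the CdSe/ZnS table, while the other members ran up to 1.38 times with a median of 1.18; its errors, 0.64 and 0.93, are wide.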

How the results depend on the processing

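No paired analysis was possible because the tables hold no value per library; for the same reason leaving out a replicate, other count normalisations and a filter on low counts were not run. With CdSe/ZnS the 117 members called lower became 45 when a log2 fold change of at least 1 was asked for, 51 in the normal test relative to the median of all entries and 13 with the length trend removed, and members called higher went from 0 to 1 and 2 in the latter settings. The CdSe/ZnS median of -0.84 became -0.49 and -0.15 in these settings. With InP/ZnS the 128 called lower became 6 at a log2 fold change of at least 1 and 83 without the length trend. Of the members that differed between the dots, the 2 lower with CdSe/ZnS became 0 relative to the medians, 0 without the length trend and 0 at an adjusted p under 0.01, and those higher with CdSe/ZnS went from 0 to 2 and 7. Without the length trend the CdSe/ZnS values of RPL31B (0.20), RPL38 (0.067), RPP2B (0.26), RPS10B (0.15), RPS14A (0.019) and RPS15 (0.018) turned positive. The other 54 summary values stayed within 1.5 times or, for untested values, within the median error of a member. The authors' q under 0.01 left 97 of 100 results for named genes in place and 3 past the threshold no longer. The normal test as deposited left 81 in place and 19 past the threshold no longer. Relative to the median of all entries 71 stayed, 28 were no longer past the threshold and 1 was stronger. Without the length trend 54 stayed, 38 were no longer past the threshold, 6 reversed and 2 were stronger.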
